A study of Caenorhabditis elegans with 79 samples.

Results

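The 816 genomic regions described here carried strong histone H3 lysine 9 trimethylation (H3K9me3) in wild-type Caenorhabditis elegans and kept it in late generations of animals lacking HRDE-1. They were chosen from a table of 100257 regions of 1 kb, of which 99748 remained after leaving out 506 regions that the authors marked as misannotated and those with a mean input signal under 2 FPKM (fragment density per kilobase, scaled to library size). The choice rested on 2 readouts: at least 30 FPKM of H3K9me3 in both wild-type libraries, and a difference of less than 0.3 in log2(FPKM + 1) between each of the 2 late hrde-1 libraries and the late wild-type library. The strong level was reached by 1351 regions. Of these, 816 were the HRDE-1-independent regions. Another 102 fell by at least 1 log2 unit in both late hrde-1 libraries and are called HRDE-1-dependent. The remaining 433 met neither rule. Among them, 249 were at least 0.3 lower in a late hrde-1 library. The other 184 were at least 0.3 higher in a late hrde-1 library and not that much lower in either. The levels in the 2 wild-type and the 2 late hrde-1 libraries are therefore a description and support nothing about independence.

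The study profiled small RNA, mRNA and chromatin of whole young adult worms. The strains were wild-type N2, morc-1(tm6048), hrde-1(tm1200), met-1(xk4) and the double mutants met-1(xk4);morc-1(tm6048) and met-1(xk4);hrde(tm1200). All groups were grown at 25 °C after earlier generations at 20 °C and fed OP50 bacteria, with early samples taken at F1 and late samples at F4 or F5. The libraries used here hold H3K9me3 of wild type, morc-1 and hrde-1 and H3K36me3 of all 6 strains. A further F5 experiment profiled H3K9me3 in wild type, met-1, morc-1 and met-1 morc-1, and it is not analysed here because its columns could not be matched to its labels by name. Whole animals were used, so a change in some tissues and a smaller change in all of them cannot be told apart.

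H3K9me3 is a mark of heterochromatin, which in C. elegans is found mostly on the arms of the chromosomes, where repeats are common. HRDE-1 is a germline nuclear Argonaute protein that, guided by small RNAs, directs H3K9me3 and transcriptional silencing at its targets across generations, and MORC-1 is a GHKL-type ATPase that acts in germline chromatin silencing. MET-1 is a methyltransferase for H3K36, and H3K36me3 usually lies over transcribed genes.

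The chromatin data used here were 8 H3K9me3, 19 H3K36me3 and 12 input libraries. The steps of the FPKM values gave 8.57 to 16.1 M fragments (M, 1e6) per H3K9me3 library and 6.97 to 12.2 M per H3K36me3 library, although totals 2 times as large match the steps too. At those depths the median HRDE-1-independent region held 317 to 609 H3K9me3 fragments and 24.5 to 62.0 H3K36me3 fragments, so counting error was larger for H3K36me3. H3K9me3 had 1 library in each group except late morc-1 and late hrde-1, with 2 each. H3K36me3 had 1 library in each early group, 3 in late wild type and 2 in each of the other late groups. For H3K9me3 the second late morc-1 and the second late hrde-1 library were from F5. For H3K36me3 the third late wild-type and the second late morc-1 library were from F5. The other late libraries used here were from F4.

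The HRDE-1-independent regions lay on chromosome arms and above all on the right arm of chromosome V. With the outer 33.3% at either end of each chromosome taken as arms, 789 of 816 regions (96.7%) were on arms. The share was 66.6% for all regions tested, 89.2% for the HRDE-1-dependent regions and 89.8% for the 433 remaining strong regions. With arms narrowed to the outer 25% the shares were 96.4% for the HRDE-1-independent, 77.5% for the HRDE-1-dependent and 50.0% for all regions. Chromosome V held 561 of the 816 (68.8%), although it holds 20.8% of the regions tested, and it held 49 of the 102 HRDE-1-dependent regions (48.0%). Its right arm alone held 503 (61.6%), which is 7.28% of the 6909 regions tested there, compared with 0.818% of all regions. That arm also held 32 HRDE-1-dependent regions (31.4% of those) and 129 of the 433 remaining strong regions (29.8%). The regions are neighbours on 6 chromosomes and not independent draws, so these shares carry no test.

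The density on chromosome V peaked in V:17000001-18000000. That megabase held 276 HRDE-1-independent regions, 28.2% of the regions tested in it, and 11 HRDE-1-dependent regions. The interval V:16000001-20000000 held 493 (60.4% of all HRDE-1-independent regions) and 18 HRDE-1-dependent regions (17.6% of those), in 3.96% of the regions tested. The other chromosomes each had a favoured arm. The left arm held 64 of 72 regions on chromosome II, 44 of 62 on III and 45 of 56 on X, while the right arm held 30 of 35 on I and 24 of 30 on IV. Chromosome centres held 27 regions, 18 of them on chromosome V.

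**Figure D1:**
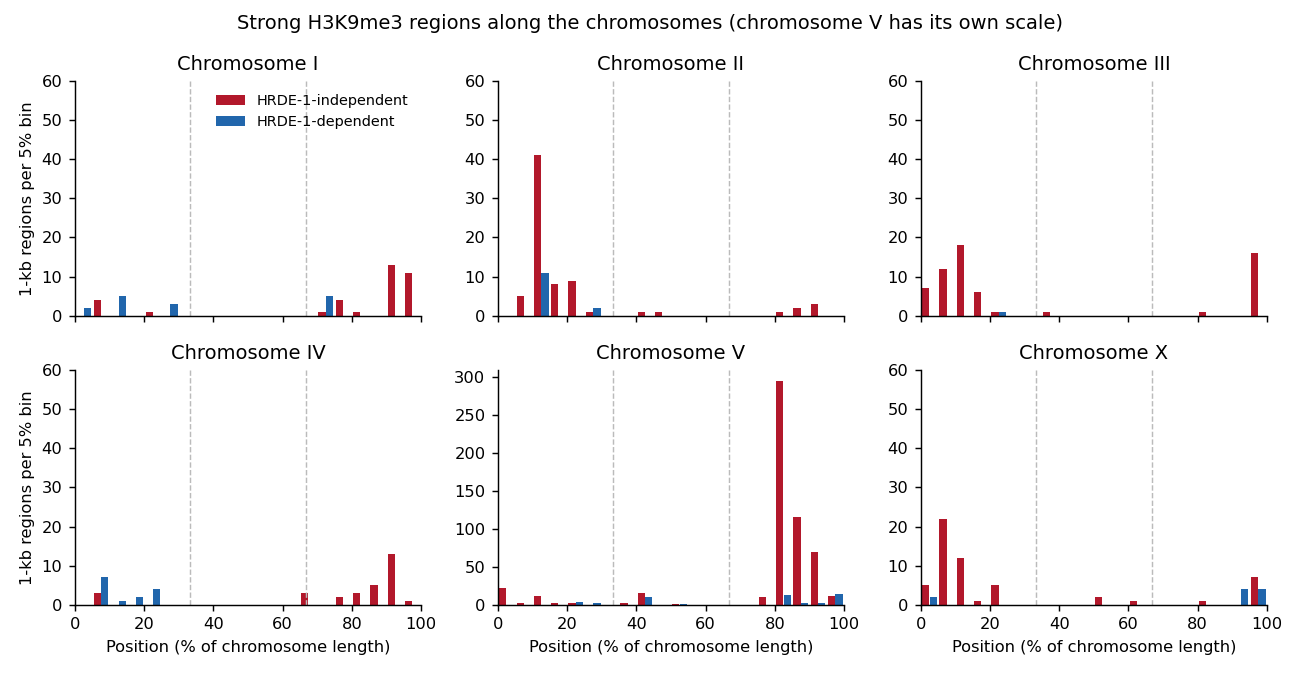
Number of strong H3K9me3 regions in bins of 5% of chromosome length, for the 816 HRDE-1-independent (red) and the 102 HRDE-1-dependent regions (blue), with dashed lines at 33.3% and 66.6% of the length. Chromosome V is drawn on its own scale because its right arm held 503 of the 816 regions.

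Many of the regions adjoined each other. The 816 regions formed 431 runs of neighbours, 263 of them a single region, and 67.8% of the regions had another of the set beside them. There were 49 runs of at least 4 kb, which held 282 regions (34.6%). The longest was the 13-kb run V:17132001-17145000, with a mean of 85.6 FPKM of H3K9me3 in early and 88.6 FPKM in late wild type. Its mean was 73.3 FPKM in early morc-1, 87.1 and 88.8 FPKM in the late morc-1 libraries, 106.1 FPKM in early hrde-1, and 92.2 and 88.9 FPKM in the late hrde-1 libraries. Early morc-1 was the lowest and early hrde-1 the highest of these 8 values. The next runs were V:19270001-19281000 with 11 kb and a wild-type mean of 65.0 FPKM, and V:18212001-18222000 with 10 kb and 44.7 FPKM. The other 5 runs named here measured 9 kb each: I:14885001-14894000, V:17052001-17061000, V:17464001-17473000, V:17183001-17192000 and V:18768001-18777000, with wild-type means of up to 53.9 FPKM.

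Outside these long runs H3K9me3 was lower but above the median of all regions. In late wild type the median was 37.1 FPKM in the last region inside the 49 runs, 27.7 FPKM in the first region outside and 24.8 FPKM at 10 kb. In early wild type the same positions had 39.5, 30.3 and 25.9 FPKM. The first late hrde-1 library had 35.7, 26.8 and 21.3 FPKM. The step at the edge follows from the choice of regions, since the first region outside had to fail it. The late wild-type median of all regions was 7.87 FPKM. From 2 to 10 kb outside, 15.96% to 35.8% of the positions were themselves HRDE-1-independent regions of another run, and the surroundings were high too: over 80% to 85% of the length of chromosome V, the wild-type median of all regions was 28.9 FPKM.

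**Figure D2:**
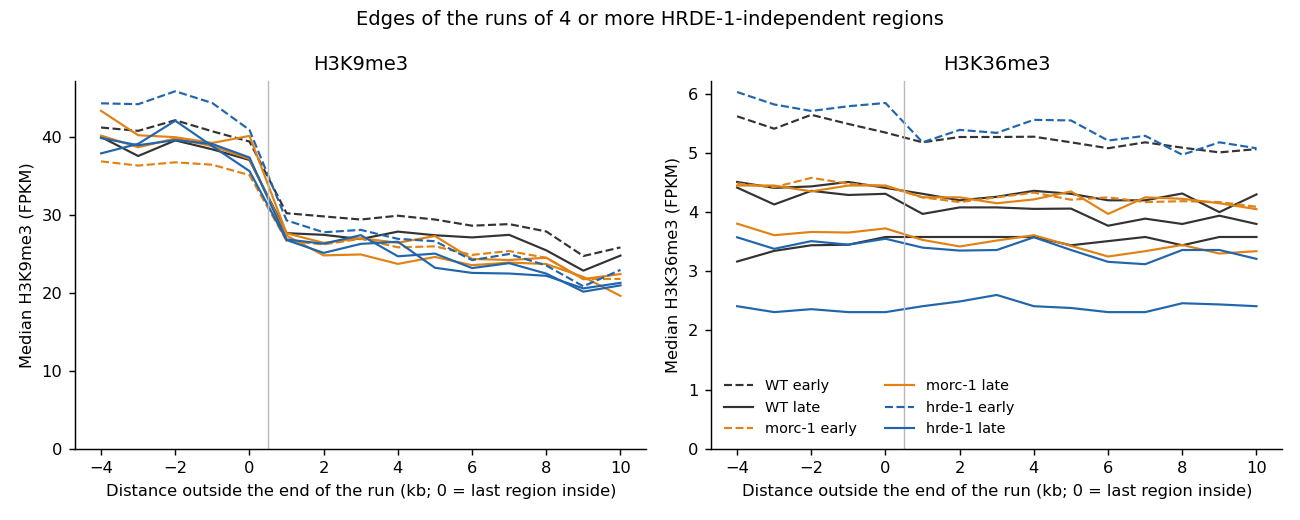
Median H3K9me3 (left) and H3K36me3 (right), in FPKM, against distance in kb from the ends of the 49 runs of at least 4 regions; each line is 1 library, dashed for early and solid for late. H3K9me3 was lower outside the edge in all 8 libraries, and late wild type still had 24.8 FPKM at 10 kb.

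Not every strong value stood far above input. Relative to the input library of the same strain and generation, the median HRDE-1-independent region had 4.01 times the input in early and 4.26 times in late wild type, against 0.850 and 0.868 over all regions. In 46 of the 816 regions the ratio was under 2 in at least 1 of these pairs, and 22 regions had a mean input over 30 FPKM. All 12 HRDE-1-independent regions in III:13584001-13599000 were among the 46, with mean inputs of 37.3 to 54.8 FPKM, where the median over all regions was 9.10 FPKM. Without the 46 regions, 770 remained and 97.5% of them were on arms. In the sample names the late wild-type H3K9me3 library has replicate number 1 and its input number 2. The same holds for early hrde-1, and what these numbers stand for is not stated.

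H3K9me3 was measured in 4 libraries that the choice did not use: early morc-1, both late morc-1 and early hrde-1. All 816 regions had at least 20 FPKM in each of them and 567 had at least 30 FPKM in all 4. The lowest value of any of the 816 there was 21.9 FPKM. In single libraries of these 4, 80.8% to 97.3% of the 816 had at least 30 FPKM. The share was 81.5% to 90.8% of the 433 remaining strong regions and 1.47% to 2.06% of all regions. A high level in these libraries was thus not particular to the set. The median of the 816 regions was 37.9 FPKM in early and 36.6 FPKM in late wild type, 34.5 FPKM in early morc-1, 39.1 and 36.7 FPKM in late morc-1, 41.7 FPKM in early hrde-1, and 37.0 and 37.4 FPKM in late hrde-1. These medians were 4.26 (early morc-1) to 5.78 times (early hrde-1) the median of all regions, which ranged from 7.22 to 8.10 FPKM. In the HRDE-1-dependent regions the median was 19.6 FPKM in early hrde-1. The median SD over the 4 libraries was 0.16 log2 units in HRDE-1-independent regions and 0.17 over all regions. It was 0.20 in the remaining strong regions and 0.44 in HRDE-1-dependent regions.

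**Figure D3:**
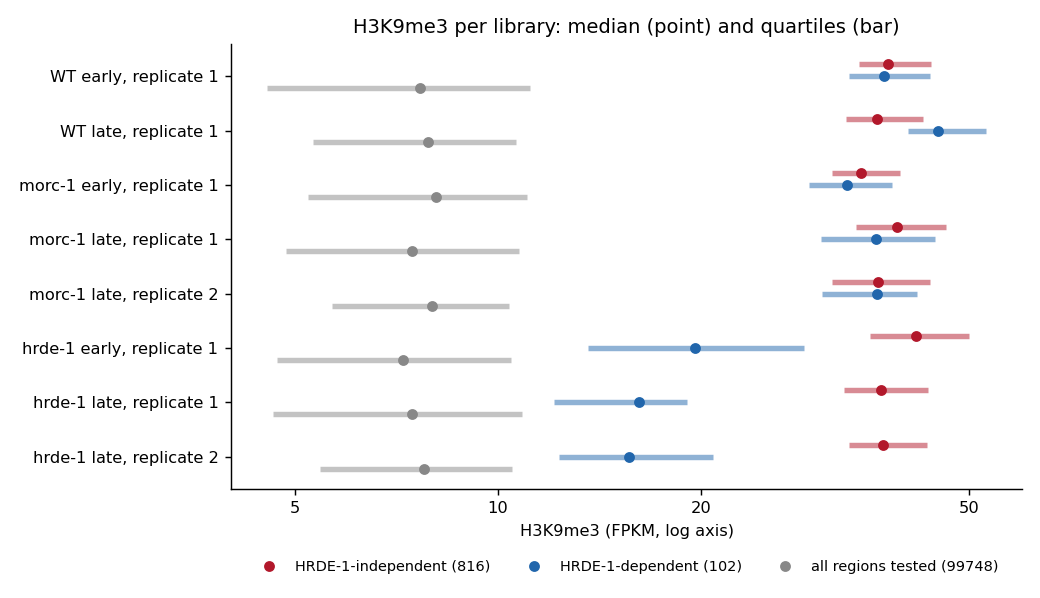
H3K9me3 in FPKM (log axis) in each of the 8 libraries for the 816 HRDE-1-independent regions, the 102 HRDE-1-dependent regions and all 99748 regions tested; points are medians and bars span the quartiles. The HRDE-1-independent medians stayed between 34.5 and 41.7 FPKM, and early hrde-1, a library the choice did not use, had a median of 19.6 FPKM in the HRDE-1-dependent regions.

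The 5 regions with the highest wild-type H3K9me3 had no lower value in any mutant library than 85.7 FPKM. V:17127001-17128000 led with 133.0 FPKM in early and 142.8 FPKM in late wild type. It had 113.8 FPKM in early morc-1, 135.9 and 123.7 FPKM in late morc-1, 170.5 FPKM in early hrde-1, and 150.1 and 154.8 FPKM in late hrde-1. II:3468001-3469000 followed with 113.0 and 128.8 FPKM in wild type and 107.4 to 170.0 FPKM in the mutants, and its input ranged from 13.1 to 26.7 FPKM. The others were V:17422001-17423000, V:17133001-17134000 and V:17141001-17142000, with 102.5 to 114.4 FPKM in wild type.

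In early generations the median difference from wild type was small and of opposite sign in the 2 mutants. Relative to early wild type, the median difference of the 816 regions was -0.14 log2 units in early morc-1, where the median of all regions was +0.05, and 699 regions were lower. In early hrde-1 it was +0.14, where the median of all regions was -0.05, and 571 regions were higher. The HRDE-1-dependent regions had medians of -0.22 and -1.04. Each early group had 1 library and both comparisons share the early wild-type library, so there is no test. That library also took part in the choice, through its minimum of 30 FPKM, which does not hold for all regions. Such a choice can lower differences from it in the set, and its part in these medians was not tested. The medians of the 2 late morc-1 libraries, which the choice did not use, had an SD of 0.064 log2 units. These 2 libraries also differ in generation (F4 and F5). The SD is that of single library medians, so it does not measure the spread of a difference between 2 libraries. After quantile normalization the hrde-1 difference turned to -0.019, and after division by input it was +0.31. The input of early hrde-1 was the lowest in these regions relative to all regions, at 0.928 times, and its part in the result was not tested.

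By chromosome, the early morc-1 difference was -0.17 on the right arm of V (477 of 503 regions lower), -0.12 on autosomes other than V (159 of 199 lower) and +0.05 on X (38 of 56 higher). All regions tested had -0.07, +0.06 and +0.09 in the same places. The early hrde-1 difference was +0.07 on the right arm of V, +0.26 on autosomes other than V and +0.31 on X. The larger positive differences thus lay outside the right arm of V, where most of the set is. The difference between places was not tested.

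**Figure D4:**
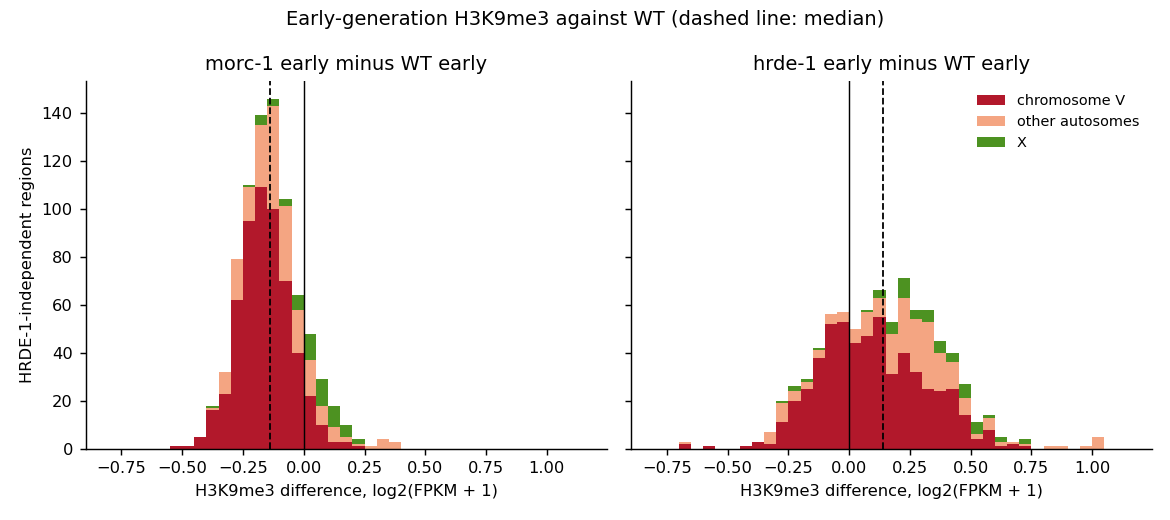
Number of HRDE-1-independent regions by their H3K9me3 difference from early wild type in log2(FPKM + 1), in early morc-1 (left) and early hrde-1 (right), stacked by chromosome. The medians (dashed lines) are -0.14 and +0.14, the latter -0.019 after quantile normalization, and there was 1 library per group. The early wild-type library took part in the choice of regions.

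The largest negative differences of single regions in early morc-1 were on the right arm of chromosome V. V:17548001-17549000 had 62.6 FPKM in early wild type and 42.7 FPKM in early morc-1 (-0.54), and 49.3 and 47.3 FPKM in late morc-1. V:17067001-17068000 (-0.46) and V:17326001-17327000 (-0.43) came next. The 3 largest negative differences in early hrde-1 were IV:15189001-15190000 (-0.69), V:17386001-17387000 (-0.68) and V:17393001-17394000 (-0.67). These 3 are among the 46 regions near input: IV:15189001-15190000 had 50.6 FPKM of H3K9me3 in early wild type and 31.0 FPKM in early hrde-1, with inputs of 56.5 to 78.2 FPKM.

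The largest positive differences in both early mutants came from 1 run, I:14885001-14894000. Its mean H3K9me3 was 42.2 FPKM in early wild type, the lowest of the 8 libraries, and 65.5 FPKM in late wild type. It was 52.9 FPKM in early morc-1, 57.8 and 76.5 FPKM in late morc-1, 82.7 FPKM in early hrde-1, and 69.9 and 67.5 FPKM in late hrde-1. The 3 largest in early hrde-1 were I:14885001-14886000 (+1.03), I:14887001-14888000 (+1.02) and I:14890001-14891000 (+1.01). In early morc-1 they were I:14893001-14894000 (+0.37), I:14892001-14893000 (+0.37) and I:14886001-14887000 (+0.35). Since the run had its lowest value in the single early wild-type library, both sets of differences share that library. Input over the 6 regions named here ranged from 8.27 to 13.5 FPKM.

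The 2 comparisons of H3K9me3 that could be tested had little power in the set, because each had 1 library on a side. limma, fitted to all 8 H3K9me3 libraries with Benjamini-Hochberg adjustment over 99748 regions, called 0 of 816 regions between late and early morc-1, where 0.001% of all regions were called. At an unadjusted p under 0.05, 5 were higher and 4 lower. Between late morc-1 and late wild type it called 0 of 816, against 0.592% of all regions (0.226% higher and 0.367% lower). At an unadjusted p under 0.05, 1 was higher and 0 lower. The spread came from 2 pairs of late libraries only. The choice of regions limited the spread of the late hrde-1 pair and used the late wild-type library, so the counts of 0 do not show that the regions did not differ.

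H3K36me3 over the HRDE-1-independent regions lay under the median of all regions in every library, but not under that of their own chromosomal surroundings everywhere. The median ranged from 2.41 to 5.82 FPKM over the 19 libraries, 0.699 to 0.949 times the median of all regions. Between 56.9% and 84.9% of the 816 regions lay under the all-region median of their library. In none of the 19 libraries did any of them exceed the 90th percentile of all regions, 22.1 to 31.3 FPKM. The choice did not use H3K36me3.

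Against all regions of the same place the picture differed. On the right arm of chromosome V the median of the HRDE-1-independent regions was 0.849 to 1.02 times that of all regions tested there, lower in 18 of 19 libraries. In the second late wild-type library, for example, the medians were 4.17 and 4.26 FPKM. On autosomes other than V the ratio was 0.612 to 0.930, lower in all 19 libraries. On X it was 0.875 to 1.30, and the HRDE-1-independent regions were the higher in 16 of 19 libraries. On the rest of chromosome V they were also higher in 16 of 19. The difference between places was not tested.

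In the late groups the H3K36me3 median of the set lay between 3.01 and 4.32 FPKM. The mean of the library medians was 4.14 ± 0.56 FPKM (SD, n = 3) in late wild type. It was 4.17 ± 0.53 FPKM (SD, n = 2) in late morc-1, 3.01 ± 0.84 (n = 2) in late hrde-1 and 4.32 ± 0.59 (n = 2) in late met-1. The late double mutants had 3.46 ± 0.32 (met-1 morc-1, n = 2) and 3.51 ± 0.52 FPKM (met-1 hrde-1, n = 2). The early libraries had 5.53 FPKM in wild type, 4.58 in morc-1, 5.82 in hrde-1, 4.43 in met-1, 3.36 in met-1 morc-1 and 4.78 in met-1 hrde-1. The 2 late hrde-1 libraries differed from each other, with 2.41 and 3.60 FPKM, and the first of them also had the lowest all-region median of the 19 libraries, 3.28 FPKM. The all-region median was 3.76 ± 0.67 FPKM in late hrde-1 (SD, n = 2) and 5.25 ± 0.34 in late wild type (n = 3). In HRDE-1-dependent regions, by contrast, the mean was 14.3 ± 0.15 FPKM in late hrde-1 (n = 2) and 4.69 ± 0.57 in late wild type (n = 3).

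**Figure D5:**
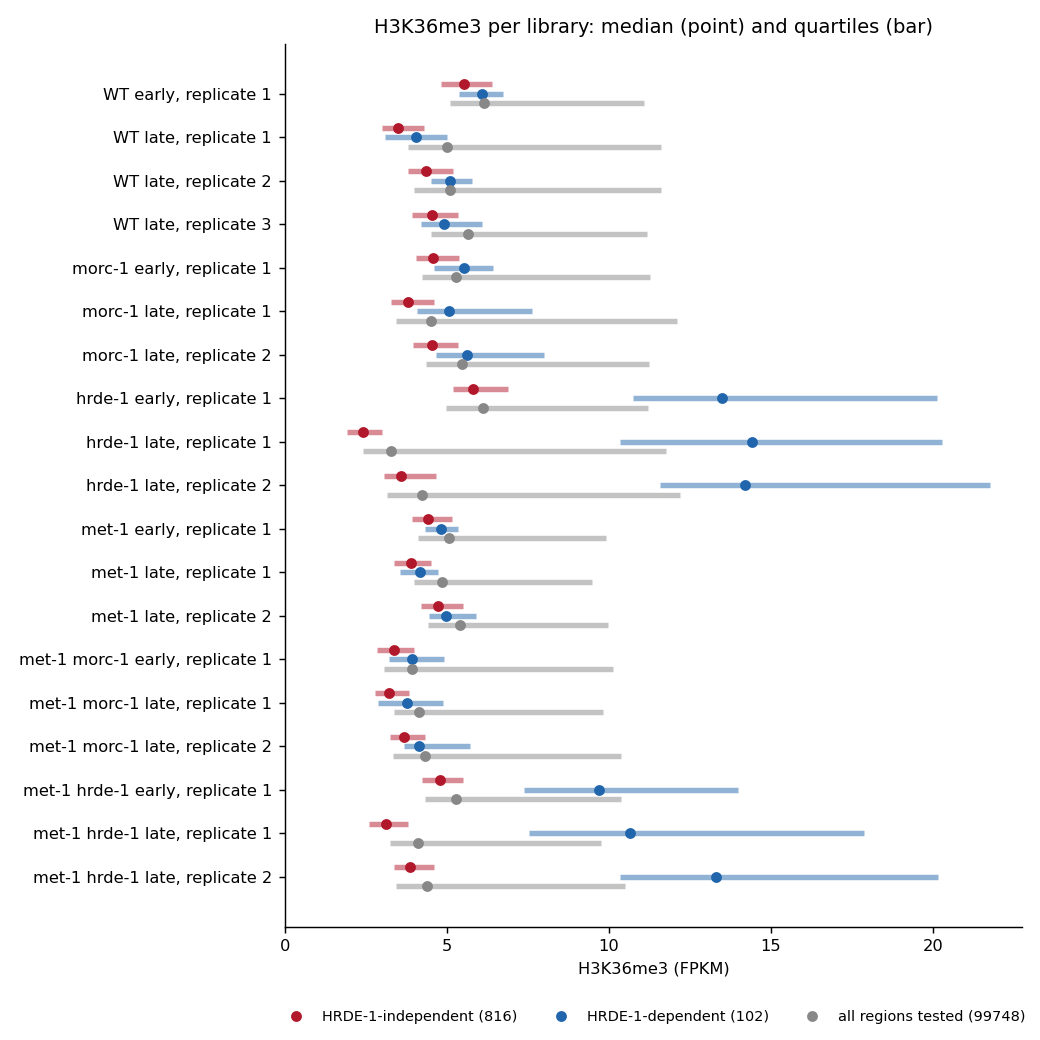
H3K36me3 in FPKM in each of the 19 libraries for the same 3 sets of regions; points are medians and bars span the quartiles. The HRDE-1-independent medians ranged from 2.41 to 5.82 FPKM and lay under the all-region median in each library, while the HRDE-1-dependent mean was 14.3 FPKM in late hrde-1.

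The 7 late comparisons of H3K36me3 were tested with limma over all 19 libraries, adjusted over 99748 regions. Between late morc-1 and late wild type 0 of 816 regions were called, where 0.432% of all regions were (0.423% higher and 0.00902% lower). At an unadjusted p under 0.05, 6 of the 816 were higher and 3 lower, and the median difference was 0.025 log2 units against -0.031 over all regions.

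In late hrde-1, 123 regions were called against late wild type, 15.1% of the 816, where 13.2% of all regions were called. Of these, 117 (14.3%) fell, against 11.2% of all regions, and 6 (0.735%) rose, against 1.96%. The median difference was -0.38 log2 units in the set and -0.28 over all regions. After quantile normalization, which gives all libraries the same distribution of values, 6 regions were higher and 0 lower. The all-region mean was 9.89 FPKM in the first late hrde-1 library and 9.83 FPKM in the first late wild-type library. Their distributions differed in shape, with 10th and 90th percentiles of 1.93 and 31.3 FPKM in the former and 3.15 and 26.7 FPKM in the latter. The number called was 1 without the first late hrde-1 library, 284 without the second, 37 without the second and 13 without the third late wild-type library. Among the regions called lower were 16 of the 46 near input. With the replicate block 16 regions were higher and 134 lower, 18.4% of the 816 against 18.9% of all regions. A block by the numbers in the titles gave 8 higher and 76 lower, 10.3% of the 816 against 10.1% of all regions.

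The 3 largest rises in late hrde-1 were at scattered regions. At V:8878001-8879000 H3K36me3 was 3.30, 5.75 and 4.67 FPKM in late wild type and 8.14 and 9.40 FPKM in late hrde-1, with no overlap. The difference was 0.83 ± 0.20 log2 units (SE, limma, adjusted p = 0.0109). The early hrde-1 library had 8.57 FPKM there, against 5.53 FPKM in early wild type, and H3K9me3 was 28.8 to 35.1 FPKM in all 8 libraries. IV:16313001-16314000 had 2.58, 3.80 and 3.38 FPKM in late wild type and 6.84 and 6.23 FPKM in late hrde-1 (0.83 ± 0.22, SE, limma adjusted p = 0.0164). X:1683001-1684000 had 3.30, 5.10 and 5.23 FPKM and 8.96 and 8.34 FPKM (0.82 ± 0.20, SE, limma adjusted p = 0.0115). Each of the 3 calls was lost without the first late hrde-1 library.

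The largest falls in late hrde-1 were at V:19424001-19425000, V:17770001-17771000 and III:965001-966000. V:19424001-19425000 had 2.87, 5.28 and 5.03 FPKM in late wild type and 0.77 and 2.88 FPKM in late hrde-1 (-1.01 ± 0.25 log2 units, SE, limma adjusted p = 0.0137). The other 2 had differences of -0.95. The lower of the 2 hrde-1 values was the first library in all 3 regions. All 3 calls were lost after quantile normalization and without the first late hrde-1 library.

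H3K36me3 was lower in late met-1 than in late wild type at 3 of 816 regions (0.368%) and higher at 0, where 2.54% of all regions were called (2.48% lower and 0.0602% higher). X:1614001-1615000 had 8.17, 10.2 and 9.33 FPKM in late wild type and 4.17 and 5.27 FPKM in late met-1 (-0.84 ± 0.19 log2 units, SE, limma adjusted p = 0.00678). V:20154001-20155000 had 9.75, 10.7 and 9.64 FPKM and then 4.34 and 6.45 FPKM (-0.80 ± 0.20, SE, limma adjusted p = 0.0146). V:326001-327000 went from 9.03, 9.74 and 9.85 FPKM to 4.70 and 6.45 FPKM (-0.69 ± 0.19, SE, limma adjusted p = 0.0413). The groups did not overlap at any of the 3, and all 3 had H3K36me3 well above the median of the set. No call remained without the first late met-1 library or without the second late wild-type library, and with the replicate block 11 regions were called (4 higher and 7 lower), 1.35% of the 816 against 6.39% of all regions.

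The regions called between each double mutant and the morc-1 or hrde-1 single mutant were mostly lower in the double mutant, although the median difference of the 816 regions was -0.24 log2 units in met-1 morc-1 (all regions -0.10) and +0.19 in met-1 hrde-1 (all regions +0.13). Between late met-1 morc-1 and late morc-1, 33 of 816 regions were lower and 0 higher (4.04%), where 6.84% of all regions were called (5.84% lower and 1.0% higher). At II:2850001-2851000 the values were 8.58 and 9.81 FPKM in late morc-1 and 2.60 and 5.73 FPKM in late met-1 morc-1 (-1.05 ± 0.26 log2 units, SE, limma adjusted p = 0.00743). V:328001-329000 and V:17758001-17759000 followed, the latter with -0.97. The number called was 2 without the first met-1 morc-1 library, 5 without the first late morc-1 library, and 7, all lower, after quantile normalization.

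Between late met-1 hrde-1 and late hrde-1, 34 of 816 regions were lower (4.17%) and 2 higher, where 6.88% of all regions were called (5.91% lower and 0.97% higher). V:20154001-20155000 had 13.2 and 14.7 FPKM in late hrde-1 and 3.35 and 5.25 FPKM in late met-1 hrde-1 (-1.52 ± 0.22 log2 units, SE, limma adjusted p = 5.11e-06). X:1614001-1615000 had 8.58 and 12.9 FPKM and then 3.79 and 4.05 FPKM (-1.23 ± 0.21, SE, limma adjusted p = 6.3e-05). These 2 regions were also among the 3 that fell in met-1 alone. The 2 higher regions, V:17055001-17056000 (+0.80) and V:18773001-18774000 (+0.78), lost their calls after quantile normalization. At an unadjusted p under 0.05, 82 of the 816 were higher and 46 lower, and the split of the calls turned to 33 higher and 13 lower without the second late hrde-1 library. The replicate block gave 86 regions, 44 higher and 42 lower (10.5% of the 816 against 14.8% of all regions), and 13 were called without the first late met-1 hrde-1 library.

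The 2 double mutants, each compared with its own single mutant, had 25 lower regions in common. These were 75.8% of the 33 and 73.5% of the 34. The overlap over all regions was not counted, so these shares describe the set without showing anything particular to it. Neighbouring regions among them are not independent. The late double-mutant libraries are compared with different controls here. On the right arm of V were 13 of the 33 and 14 of the 34, whereas that arm holds 503 of the 816 regions.

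The run I:14885001-14894000, described above for its H3K9me3 in early hrde-1, also had more H3K36me3 than most of the set. Its mean was 11.3 FPKM in early wild type and 14.8, 15.4 and 14.4 FPKM in late wild type. It was 16.9 and 11.7 FPKM in late morc-1, 10.96 and 17.1 FPKM in late hrde-1, and 11.6 and 13.4 FPKM in late met-1. Late met-1 morc-1 had 6.40 and 8.05 FPKM and late met-1 hrde-1 had 4.93 and 7.18 FPKM, lower than each of the other late groups without overlap. The run thus carried 1.56 to 4.76 times the H3K36me3 median of the set while its H3K9me3 was 1.11 to 2.08 times the median of the set.

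Of the HRDE-1-independent regions, 19 (2.33%) had at least 10 FPKM of H3K36me3 in late wild type, against 27.3% of all regions. Of the 19, 7 were in this run, 6 were among the regions near input and 6 lay elsewhere, on chromosomes V and X. The run also held 9 of the 33 regions lower in met-1 morc-1 than in morc-1 and 8 of the 34 lower in met-1 hrde-1 than in hrde-1.

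The comparisons of the double mutants with met-1 called few regions, and most of them were in this run. Late met-1 hrde-1 against late met-1 gave 7 lower regions, all in the run, and 1 higher (0.98% of 816, where 0.806% of all regions were called, 0.103% lower and 0.703% higher). At I:14888001-14889000 the values were 14.8 and 16.8 FPKM in late met-1 and 5.50 and 8.05 FPKM in late met-1 hrde-1 (-1.13 ± 0.20 log2 units, SE, limma adjusted p = 0.00029). I:14885001-14886000 (-1.11) and I:14887001-14888000 (-1.09) followed. The higher region was V:8878001-8879000, also higher in hrde-1, with 3.10 and 4.30 FPKM in late met-1 and 6.98 and 8.44 FPKM in late met-1 hrde-1 (0.90 ± 0.22, SE, limma adjusted p = 0.0321). No call remained without the first late met-1 hrde-1 library, and the replicate block gave 17 (3 higher and 14 lower), 2.08% of the 816 against 2.29% of all regions.

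Late met-1 morc-1 against late met-1 gave 1 lower region, where 0.306% of all regions were called (0.0351% lower and 0.271% higher). It was I:14888001-14889000, with 7.47 and 8.98 FPKM in late met-1 morc-1 (-0.87 ± 0.20 log2 units, SE, limma adjusted p = 0.028). The call was lost without any 1 of the 4 libraries, and the replicate block called 14 regions, all lower, 1.72% of the 816 against 1.69% of all regions. The 2 double-mutant comparisons share the late met-1 libraries.

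The authors' deposited table also marks regions by its own criteria, for which no cutoff is stated. It marks 7 of the 816 regions as GRTS (0.858%, against 0.191% of all regions and 31 of the 102 HRDE-1-dependent ones). Among the 7 is V:8878001-8879000, which was called higher in H3K36me3 in late hrde-1 and in late met-1 hrde-1. As GRH it marks 0 of the 816 (0.216% of all regions). Genes upregulated in late morc-1 are marked by the authors' deposited table at 5 of the 816 regions (0.61%), against 7.44% of all regions. For genes upregulated in late hrde-1 the authors' deposited table marks 32 regions (3.92%), against 5.65% of all. None of the 816 is marked in the authors' deposited table as lower in H3K9me3 in morc-1 or hrde-1 (1.47% of all regions), which uses contrasts that chose the set, or as higher in H3K36me3 (0.859% of all regions). The authors' deposited table sorts regions by H3K9me3 into numbered tiers, of which the first 4 hold 43, 357, 354 and 62 of the 816 regions.

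The cutoffs that defined the set split neighbouring values. Just inside the wild-type cutoff, II:3283001-3284000 and III:118001-119000 both had 30.0 FPKM in their lower wild-type library, and just outside, X:9202001-9203000 and I:12455001-12456000 had 29.9 FPKM or slightly more. At the cutoff on the hrde-1 difference, V:18758001-18759000 was inside with a largest difference of 0.30, as was II:14327001-14328000, and III:1717001-1718000 and V:18406001-18407000 were outside, also with 0.30 when rounded. Of the regions left out as misannotated, 422 had at least 30 FPKM in both wild-type libraries.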

How the data were processed

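Whole young adult worms were crosslinked, and sheared chromatin was precipitated with antibodies to H3K9me3 or H3K36me3, per the labels' protocols. The authors deposited FPKM values for consecutive 1-kb regions, and Bowtie 0.12.7 is named in the submitters' processing notes. The genome build is not given in the sources used here, so positions are those of the deposited table, counted from 1. The deposited tier score of each region and the other marks are the authors' own. Of the ChIP columns, 39 were matched to labelled libraries by name, and 12 others, which no label names, were not used. Small RNA and mRNA tables were not used here.

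Values were analysed as log2(FPKM + 1). Differences were tested with limma 3.58.1 (R 4.3.3, trended moderation) over all libraries of a mark and adjusted by Benjamini-Hochberg over all 99748 regions, with 0.05 as threshold. The script was tested on simulated data. Groups came from titles. Nothing in the labels says which libraries came from separate cultures, so p-values measure the spread between these libraries. The fragment totals were read from the size of the FPKM steps (tolerance 0.1 of a fragment).

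The regions and lists were chosen with earlier results of these data known. Regions named are the 8 longest runs, the 5 with highest wild-type H3K9me3, up to 3 called regions per direction in each comparison, the 3 largest early differences per direction, and those next to each cutoff. Regions outside these rules are named only as places of a count.

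Late libraries of 5 groups share the numbers 1 and 2 in their sample names. The differences between number 1 and number 2 correlated between groups in all 10 pairs (r from 0.160 to 0.319), so these numbers were used as a replicate block. In that block the F5 libraries formed a level of their own. The numbers in the titles are the same for these 5 groups and add late morc-1. Over their 15 pairs r ranged from -0.0986 to 0.319, with a median of 0.207.

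Alternatives were pseudocounts of 0.5 and 4, input filters, quantile normalization, division by input, only the groups compared, single libraries left out, the blocks, and other cutoffs for the set. Restricting the set to regions at 2 times input or more was chosen after seeing the data.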

Additional observations from a re-analysis of the deposited data

How the results depend on the processing

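The set grew to 2615 regions with a wild-type minimum of 20 FPKM and shrank to 238 with 40 FPKM, of which 98.7% were on arms. For division by input, the 1 input library of each group served all ChIP libraries of that group. The error of that input is thus not in the spread between libraries, which can raise the number called. Division by input moved the number of regions called to 1 for H3K9me3 in late against early morc-1 and 4 in late morc-1 against late wild type. For H3K36me3 it gave 3 in morc-1 and 289 in hrde-1 against wild type, 22 in met-1 against wild type, 19 in each double mutant against met-1, 85 in met-1 morc-1 against morc-1 and 92 in met-1 hrde-1 against hrde-1 (63 higher and 29 lower). Quantile normalization gave 6 in hrde-1 against wild type, 14 in met-1 hrde-1 against met-1 and 7 in met-1 morc-1 against morc-1. Fitting only the groups compared gave 5 in met-1 and 7 in met-1 morc-1 against met-1. The early H3K9me3 difference became -0.0932 (morc-1) and -0.0192 (hrde-1) with quantile normalization and -0.0809 and 0.31 after division by input. The cause of these shifts was not tested. Shares over all regions are not given for these settings or for single libraries left out. Their counts therefore describe how far the calls moved, not how the set compares with all regions.

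With single libraries left out, the number called ranged from 1 to 284 in hrde-1 against wild type, 0 to 3 in met-1 against wild type, 0 to 0 in met-1 morc-1 and 0 to 9 in met-1 hrde-1 against met-1, 2 to 25 in met-1 morc-1 against morc-1, and 13 to 46 in met-1 hrde-1 against hrde-1. Where this left 1 library in a group, that library was assumed to vary like the other groups. It was 0 throughout for H3K36me3 in morc-1 against wild type. The 0 in both H3K9me3 comparisons says nothing about stability, since each then has 1 library on each side. In met-1 hrde-1 against hrde-1 the split turned to 33 higher and 13 lower without the second hrde-1 library.

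The replicate block by sample-name numbers gave 11 in met-1 against wild type, 14 in met-1 morc-1 and 17 in met-1 hrde-1 against met-1, and 86 in met-1 hrde-1 against hrde-1. It gave 16 higher and 134 lower in hrde-1 against wild type, where 6 and 117 were called without it, and moved no other total by over 1.5 times. The block by title numbers, which places the late morc-1 libraries differently, gave 6 in met-1 morc-1 against met-1 (0.735%, all regions 0.454%). It gave 55 in met-1 morc-1 against morc-1 (6.74%, all regions 11.7%) and 55 in met-1 hrde-1 against hrde-1 (6.74%, all regions 9.66%).

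Of 22 calls at named regions, 3 were kept in all settings run, and none changed direction. In 295 checks, 243 kept and 52 lost the call. Of the planned settings, the comparison within the second F5 experiment was not run. Depth limits H3K36me3 most, with 24.5 to 62.0 fragments in the median region.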
